A study of Mus musculus with 96 samples.

Results

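Immediate early genes are transcribed within minutes of a stimulus without new protein synthesis, and their RNAs decay quickly. The 10 members described here are Fos, Fosb, Jun, Junb, Egr1, Ier2, Ier3, Zfp36, Atf3 and Dusp1, chosen by symbol and not by their values. All 10 were listed among 22632 genes in sciatic nerve and among 20940 genes in gastrocnemius muscle of mouse, and all 10 passed the filter on low values, as did 17226 genes in nerve and 15748 in muscle. In 96 libraries over 7 regimens of diet and running, none of the 10 passed the test in any comparison in either tissue. Several of them varied more between libraries of 1 regimen than most genes did. They also varied together, and how often other genes did so was not computed.

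RNA was sequenced from 47 nerve (SCN) and 49 muscle (GASTROC) libraries of male C57BL/6J mice that were bought at 11 weeks of age, housed singly and killed at 26 weeks. KDI_EX mice ate the lard-based high-fat diet with 60% of energy from fat from 12 to 18 weeks of age, then the cocoa butter-based ketogenic diet with 90% of energy from fat together with a voluntary running wheel (7 nerve and 6 muscle libraries). KDI mice made the same change of diet without a wheel (7 and 7 libraries). EX mice stayed on the high-fat diet and had the wheel from 18 weeks (7 and 7), and DR mice were moved at 18 weeks to the standard diet (7 and 7). KD mice ate the ketogenic diet throughout (7 and 7), HFD mice the high-fat diet throughout (6 and 7), and SD mice the standard diet with 10% of energy from fat throughout (6 and 8). No group is a wheel on the standard diet, and DR, KDI, EX and KDI_EX are all set against the same HFD libraries. Values are the deposited log2 expression values, the sequencing depth is unknown, and the labels do not say whether libraries came from separate mice, so p-values measure only the spread between libraries.

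The members fall into 3 roles. Fos, Fosb, Jun and Junb are subunits of AP-1, a dimeric transcription factor, and Atf3 is a related factor that is induced by cell stress and, in injured peripheral nerve, in neurons and Schwann cells. Egr1 is a zinc finger transcription factor and Ier2 a nuclear protein. Dusp1 is a phosphatase that switches MAP kinases off, Zfp36 (tristetraprolin) a protein that speeds the decay of RNAs with AU-rich elements, and Ier3 a regulator of survival and ERK signalling, so these act as brakes or modulators of the same signals. The genes are read by serum response factor at CArG boxes and by CREB at cAMP response elements, among others, downstream of ERK, calcium and stress kinases. In muscle they are known to be induced by contraction.

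The RefSeq promoter table for GRCm38.p6 holds windows of 300 bases, from 250 bases before to 50 after the annotated start, for 8 of the 10 members, and not for Egr1 and Ier2. The windows printed here belong to the AP-1 genes that moved together between libraries (Fos, Fosb, Junb), to the pair Zfp36 and Dusp1, which also moved together, and to Ier3, which moved with few of the others. They lie at chr12:85473640-85473939 on the plus strand for Fos, chr7:19309996-19310295 on the minus strand for Fosb, chr8:84978699-84978998 on the minus strand for Junb, chr7:28379179-28379478 on the minus strand for Zfp36, chr17:26508423-26508722 on the minus strand for Dusp1 and chr17:35821463-35821762 on the plus strand for Ier3. Each is written 5′ to 3′ on the gene's strand, and capitals mark the cAMP response element TGACGTCA or its core TGACG, the CArG box and TATAAA.
Fos: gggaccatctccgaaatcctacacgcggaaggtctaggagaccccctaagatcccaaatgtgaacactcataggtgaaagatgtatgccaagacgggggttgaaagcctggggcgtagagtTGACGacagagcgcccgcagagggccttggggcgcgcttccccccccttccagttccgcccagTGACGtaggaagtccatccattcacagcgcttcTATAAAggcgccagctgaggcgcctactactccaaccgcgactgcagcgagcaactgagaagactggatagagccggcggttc
Fosb: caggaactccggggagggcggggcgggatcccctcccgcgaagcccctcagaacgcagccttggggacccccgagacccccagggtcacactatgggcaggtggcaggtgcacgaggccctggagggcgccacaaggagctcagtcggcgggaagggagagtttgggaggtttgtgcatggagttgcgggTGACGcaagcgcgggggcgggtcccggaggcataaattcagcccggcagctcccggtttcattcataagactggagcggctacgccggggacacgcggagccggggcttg
Junb: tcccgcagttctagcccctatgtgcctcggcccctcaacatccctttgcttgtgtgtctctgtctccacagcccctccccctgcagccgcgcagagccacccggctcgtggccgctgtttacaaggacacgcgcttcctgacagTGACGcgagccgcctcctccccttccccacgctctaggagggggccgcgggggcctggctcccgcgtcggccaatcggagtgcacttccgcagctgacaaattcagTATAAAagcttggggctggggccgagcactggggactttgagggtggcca
Zfp36: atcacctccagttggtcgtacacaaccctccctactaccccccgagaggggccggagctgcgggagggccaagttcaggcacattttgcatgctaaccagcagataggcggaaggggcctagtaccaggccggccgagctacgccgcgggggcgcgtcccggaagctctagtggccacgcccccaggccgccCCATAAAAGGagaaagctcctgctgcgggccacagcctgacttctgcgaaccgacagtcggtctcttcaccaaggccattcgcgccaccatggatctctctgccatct
Dusp1: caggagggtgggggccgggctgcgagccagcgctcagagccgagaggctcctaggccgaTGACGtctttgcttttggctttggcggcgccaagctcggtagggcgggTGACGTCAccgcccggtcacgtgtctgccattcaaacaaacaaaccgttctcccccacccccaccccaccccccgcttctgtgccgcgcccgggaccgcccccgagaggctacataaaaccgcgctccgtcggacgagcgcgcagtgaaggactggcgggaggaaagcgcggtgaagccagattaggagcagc
Ier3: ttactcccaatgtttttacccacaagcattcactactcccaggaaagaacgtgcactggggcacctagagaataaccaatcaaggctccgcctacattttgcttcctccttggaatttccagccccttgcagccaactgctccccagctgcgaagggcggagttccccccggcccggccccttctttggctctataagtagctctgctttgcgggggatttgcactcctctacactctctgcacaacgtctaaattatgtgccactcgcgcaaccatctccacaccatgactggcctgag
The motifs were searched as exact letters on both strands, and cores inside a whole element were counted as well. TGACG was found in 5 of 8 windows (Fos, Fosb, Junb, Atf3 and Dusp1), against 20.8% of 32851 windows in the table, and the whole element TGACGTCA in the Dusp1 window, at positions -143 to -136 from the start, against 1.79% of windows. The CArG box was found in the Zfp36 window, at positions -58 to -49, against 1.63% of windows. TATAAA lay in the Fos window at positions -33 to -28 and in the Junb window at positions 1 to 6, against 13.6% of windows. The GC box GGGCGG, a site of Sp1-family factors, was in 7 of 8 windows against 35.7% of all, and CCAAT in 4 of 8 against 37.4%. The AP-1 element TGANTCA (7.81% of all windows), the EGR element GCGTGGGCG (0.612%) and the ETS element CCGGAAGT (3.89%) were in 0 of 8. These matches describe letters in these windows and are not sites of binding.

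Earlier work on these data saw 4 libraries stand apart, by markers of neighbouring tissue or by their place among the libraries: nerve EX replicate 5 and KDI_EX replicate 7, and muscle DR replicate 1 and KDI_EX replicate 6. All 18 Schwann cell and myelin markers passed the filter in nerve and all 18 skeletal muscle markers in muscle, but the 18 skeletal muscle markers also passed in nerve. Their mean, centred on all nerve libraries, ran from -1.56 to 2.51 in HFD and from -1.05 to 3.10 in SD nerves on the log2 scale. In bulk tissue, fewer cells of a type and less RNA per cell cannot be told apart.

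In nerve, all 10 members had lower means in HFD than in SD, by a median of -0.26 on the log2 scale against -0.01 over all tested genes, but none passed the test. At an adjusted p under 0.05, 0 of 17226 genes were called in HFD vs SD with limma, which is 0% of genes. At an unadjusted p under 0.05 and a lower mean stood Jun, Junb, Ier2, Ier3 and Zfp36, 5 of 10 members, against 8.19% of all tested genes, and 18.2% of genes passed that limit in either direction. A lower mean in HFD was found for 51.8% of all genes. The members vary together between libraries, as shown further on, so the 10 signs are not 10 separate observations. The largest members' differences were those of Fos at -0.64 (SE 0.32, unadjusted p = 0.0502) and Ier2 at -0.49.

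Ier2 had the smallest p of the members. Its lowest, median and highest log2 values were 8.55, 8.76 and 8.93 in HFD nerves and 9.08, 9.21 and 9.43 in SD nerves. Every HFD nerve lay below every SD nerve, which was so for no other member. The 2 groups did not overlap, in either direction, for 0.319% of tested genes. The difference was -0.49 with a 95% interval from -0.77 to -0.20 (SE 0.14, unadjusted p = 0.00145, adjusted p = 0.146, limma), and an exact two-sided permutation test over these libraries gave p = 0.00216, the smallest that 6 against 6 libraries allow. The call depended on how libraries were weighted. Ier2 passed with library quality weights (-0.47, adjusted p = 0.0147) and without HFD replicate 5 (-0.52, adjusted p = 0.029), and over all alternatives its adjusted p ran from 0.0147 to 0.444. Those fits called 22% and 9.57% of all genes, against 1 member of 10 in each, so the call does not set the members apart from other genes.

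Junb, an AP-1 subunit that is often a weaker activator than Jun, ran from 9.30 to 9.99 with a median of 9.61 in HFD nerves and from 9.76 to 10.31 with a median of 10.11 in SD nerves. All 6 HFD nerves lay below the SD mean, and the groups overlapped (difference -0.44, SE 0.16, adjusted p = 0.189). Fos had a lowest, median and highest value of 9.41, 9.92 and 10.55 in HFD nerves and of 10.12, 10.54 and 10.97 in SD nerves, with 5 of 6 HFD nerves below the SD mean (adjusted p = 0.275). Zfp36 ran from 10.23 to 10.82 in HFD nerves and from 10.77 to 11.04 in SD nerves, so the highest HFD nerves reached only the lower end of SD (difference -0.30, SE 0.13, adjusted p = 0.219). Egr1 differed by -0.40 (SE 0.20, adjusted p = 0.284), Jun by -0.17 and Ier3 by -0.16. Fosb at -0.22, Dusp1 at -0.17 and Atf3 at -0.14 had unadjusted p-values from 0.231 to 0.538. No member changed sign when a single library was left out, but Fosb was -0.05 without HFD replicate 5, Dusp1 -0.08 without HFD replicate 3 and Jun -0.10 without SD replicate 5.

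**Figure D1:**
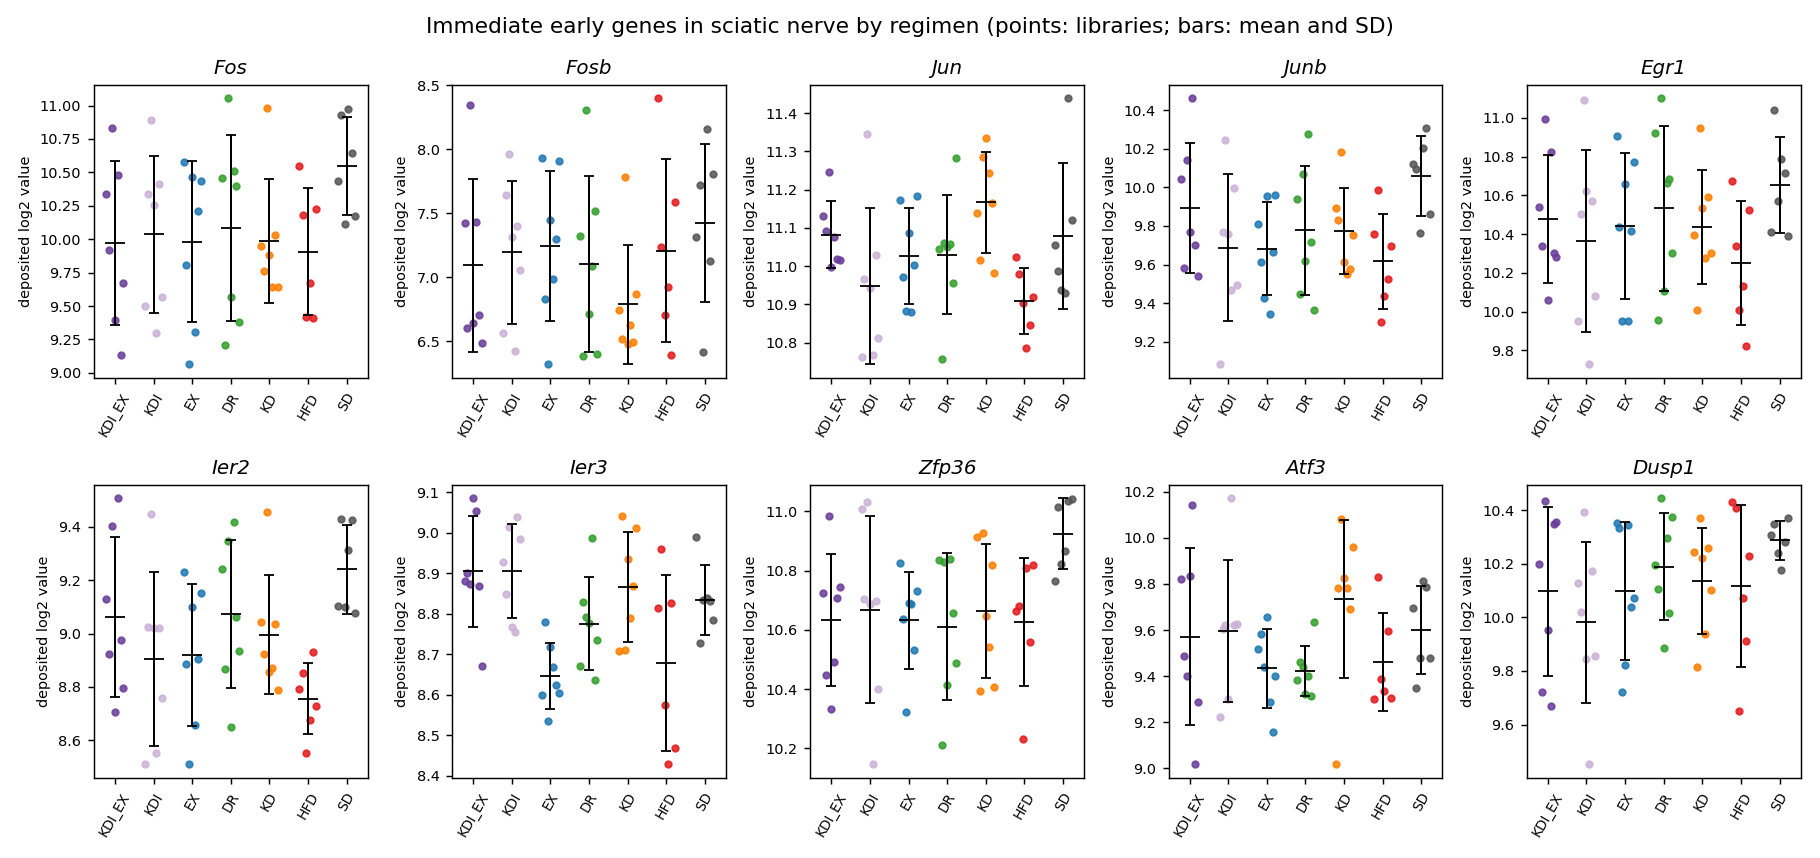
Deposited log2 value of each member (vertical axes, each with its own range) in 47 sciatic nerve libraries by regimen (horizontal axes); points are libraries, horizontal bars the group mean and whiskers the standard deviation. SD has the highest mean for Fos, Fosb, Junb, Egr1, Ier2, Zfp36 and Dusp1, and for Ier2 the 6 HFD points lie below the 6 SD points.

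Other lists of genes were measured beside this difference. Of 53 tested early response genes that are not members, 40 had a lower mean in HFD nerves, with a median of -0.09. Of these 53, 0 passed the test and 7 were at an unadjusted p under 0.05, all lower. Over all tested genes, 51.8% had a lower mean, 8.19% were lower at that limit and 18.2% passed it in either direction. Of 31 transcription factors and kinases that act upstream, such as Srf, Elk1 and Creb1, 24 had a higher mean in HFD nerves, 0 passed the test and the median was 0.06. All 18 skeletal muscle markers had a lower mean in HFD nerves, with a median difference of -0.71, and 0 of them passed. With muscle, adipocyte and macrophage scores as covariates the Ier2 difference was -0.49 (unadjusted p = 0.00183, adjusted p = 0.0583). That fit called 376 of all genes, against 0 as reported, and no member. With group means removed, the members' r with the muscle marker score ran from -0.25 to 0.31 over nerve libraries. None of these passed (smallest adjusted p = 0.141, permutation). The part of the muscle markers in the members' HFD vs SD values, that of Ier2 included, was not tested.

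The SD mean was the highest of the 7 regimens in nerve for 7 members, and HFD the lowest for Fos, Jun, Junb, Egr1 and Ier2. For Ier2 the means ran upward from HFD at 8.76 through KDI at 8.90, EX at 8.92, KD at 9.0, KDI_EX at 9.06 and DR at 9.07 to SD at 9.24. Of the 6 steps between neighbours in that order, the step between KDI and HFD was larger than the smaller of the 2 groups' standard deviations. Over the 10 members and 60 such steps, 4 were that large, the others being SD over DR for Fos and Dusp1 and SD over KDI for Zfp36. An F test over the 7 regimens called 0 members against 0.151% of genes, and its smallest p among the members was that of Ier3 (unadjusted p = 0.00163, adjusted p = 0.189).

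KD vs SD called 0.00581% of genes in nerve and 0 members. The smallest p was that of Zfp36, with a median of 10.65 (10.39 to 10.93) in KD nerves and of 10.94 (10.77 to 11.04) in SD nerves. The groups overlapped, and the difference was -0.26 (SE 0.12, unadjusted p = 0.0377, adjusted p = 0.822). The macrophage markers had lower means in KD nerves for 20 of 20 genes, by a median of -0.23. Over nerve libraries with group means removed, Zfp36 had r = 0.04 with the macrophage score (adjusted p = 0.94, permutation). The r values of Zfp36 that passed in nerve were 0.51 with heat shock genes, 0.41 with endothelial and 0.40 with adipocyte markers, described further on. The part of any of these scores in the KD vs SD difference of Zfp36 was not tested. Fosb differed by -0.64 (SE 0.34) and Fos by -0.56 (SE 0.30), neither past an unadjusted p of 0.05, although 6 of 7 KD nerves lay below the SD mean for each.

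The 4 interventions in nerve were set against HFD. In DR vs HFD, 0% of genes and 0 members passed, and Ier2 was nearest, with a median of 9.06 (8.65 to 9.42) in DR nerves and of 8.76 (8.55 to 8.93) in HFD nerves (difference 0.32, SE 0.14, unadjusted p = 0.0253, adjusted p = 0.663). In KDI vs HFD, 0.0232% of genes and 0 members passed. Ier3, the least variable member, had a median of 8.93 (8.76 to 9.04) in KDI nerves and of 8.69 (8.43 to 8.96) in HFD nerves. All 7 KDI nerves lay above the HFD mean, but the groups overlapped since the HFD nerves reached from below the KDI range up to 8.96 (difference 0.23, SE 0.07, unadjusted p = 0.00334, adjusted p = 0.869). In EX vs HFD, 0% of genes and 0 members passed, and the smallest p was that of Jun (0.12, SE 0.08, adjusted p = 0.73).

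KDI_EX vs HFD called 0.0697% of genes in nerve and 0 members. Ier3 had a median of 8.88 (8.67 to 9.09) in KDI_EX nerves and of 8.69 (8.43 to 8.96) in HFD nerves (difference 0.23, SE 0.07, unadjusted p = 0.00337, adjusted p = 0.472), and the groups overlapped. Jun at 0.17 and Ier2 at 0.31 were also past an unadjusted p of 0.05, so 3 of 10 members were higher at that limit against 3.27% of all genes. Because DR, KDI and KDI_EX share the HFD libraries with each other and with HFD vs SD, a low HFD mean of Ier2 or Ier3 enters each of these values. The wheel on the ketogenic diet, KDI_EX vs KDI, called 0% of genes and 0 members, with Jun at 0.14 (SE 0.08, adjusted p = 0.998). Whether the wheel difference depended on the diet gave no call among members or over all genes (0%), and the smallest p of a member was 0.475, for Dusp1.

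In muscle, the members did not move to 1 side. HFD vs SD called 0.0191% of genes and 0 members, with 4 lower and 6 higher means, where 51.6% of all genes had a lower one. The split shifted without HFD replicate 2. Fos (-0.21), Egr1 (-0.08) and Junb (-0.07) then had lower means in HFD too, while Ier2 (0.23), Ier3 and Atf3 stayed higher. Ier2 and Ier3 were higher at an unadjusted p under 0.05, 2 of 10 members against 3.39% of all genes. Ier2 had a lowest, median and highest value of 7.74, 8.13 and 8.52 in HFD muscles and of 7.68, 7.88 and 8.01 in SD muscles. The upper HFD muscles lay beyond the whole SD range while the lowest lay within it (difference 0.29, SE 0.14, unadjusted p = 0.0361, adjusted p = 0.546, and p = 0.014 in an exact two-sided permutation test). Over the alternatives the Ier2 difference was smallest without HFD replicate 2, at 0.23, and its unadjusted p ran from 0.00829 to 0.11. The direction differs from that in nerve, where Ier2 was lower in HFD, and this difference between tissues was not tested because the tissues were transformed separately.

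Of the cell type scores in muscle, the largest r belonged to Ier2. Over 49 muscle libraries, with group means removed, its Pearson r was -0.65 with the mean of 18 skeletal muscle markers, 0.58 with fibroblast markers and 0.53 with macrophage markers (rho -0.61, 0.53 and 0.56). The adjusted p-values of r were 0.001, 0.0012 and 0.00367 over 200 relations in both tissues. Leaving out the 2 libraries farthest out left r at -0.58, 0.48 and 0.50. The centred fibroblast score had a median of 0.12 (-0.55 to 0.59) in HFD muscles and of -0.23 (-0.64 to 0.17) in SD muscles, and the macrophage score a median of 0.24 (-0.50 to 0.57) in HFD and of -0.24 (-0.55 to 1.01) in SD muscles. Their part in the Ier2 difference was not tested. Junb had the same signs, with r of -0.51, 0.49 and 0.51. Without the libraries that stood apart, Ier2 had -0.56, 0.45 and 0.40, of which the macrophage value missed the threshold (adjusted p = 0.0638), and Junb had -0.35, 0.27 and 0.31, with adjusted p-values of 0.106, 0.234 and 0.166. Egr1 and Fosb had weaker relations of the same signs, Egr1 with all 3 scores (-0.39, 0.39 and 0.42) and Fosb with the fibroblast (0.38) and macrophage (0.44) scores, and none passed without those libraries.

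KD vs SD called 0.197% of genes in muscle and 0 members. Ier3 had a lowest, median and highest value of 7.59, 7.69 and 7.99 in KD muscles and of 7.43, 7.52 and 7.61 in SD muscles. All 7 KD muscles lay above the SD mean and the groups overlapped only between 7.59 and 7.61 (difference 0.21, SE 0.07, unadjusted p = 0.00651, adjusted p = 0.322, and p = 0.00155 in an exact two-sided permutation test). Over the alternatives its adjusted p ran from 0.0966 to 0.611. Ier3 was lowest in SD muscles among the 7 regimens, with a mean ± standard deviation of 7.74 ± 0.15 in KD (n = 7) and of 7.53 ± 0.06 in SD (n = 8). Ier2 and Egr1 had their lowest means in SD muscles too, at 7.83 ± 0.12 and 8.18 ± 0.33 (n = 8).

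**Figure D2:**
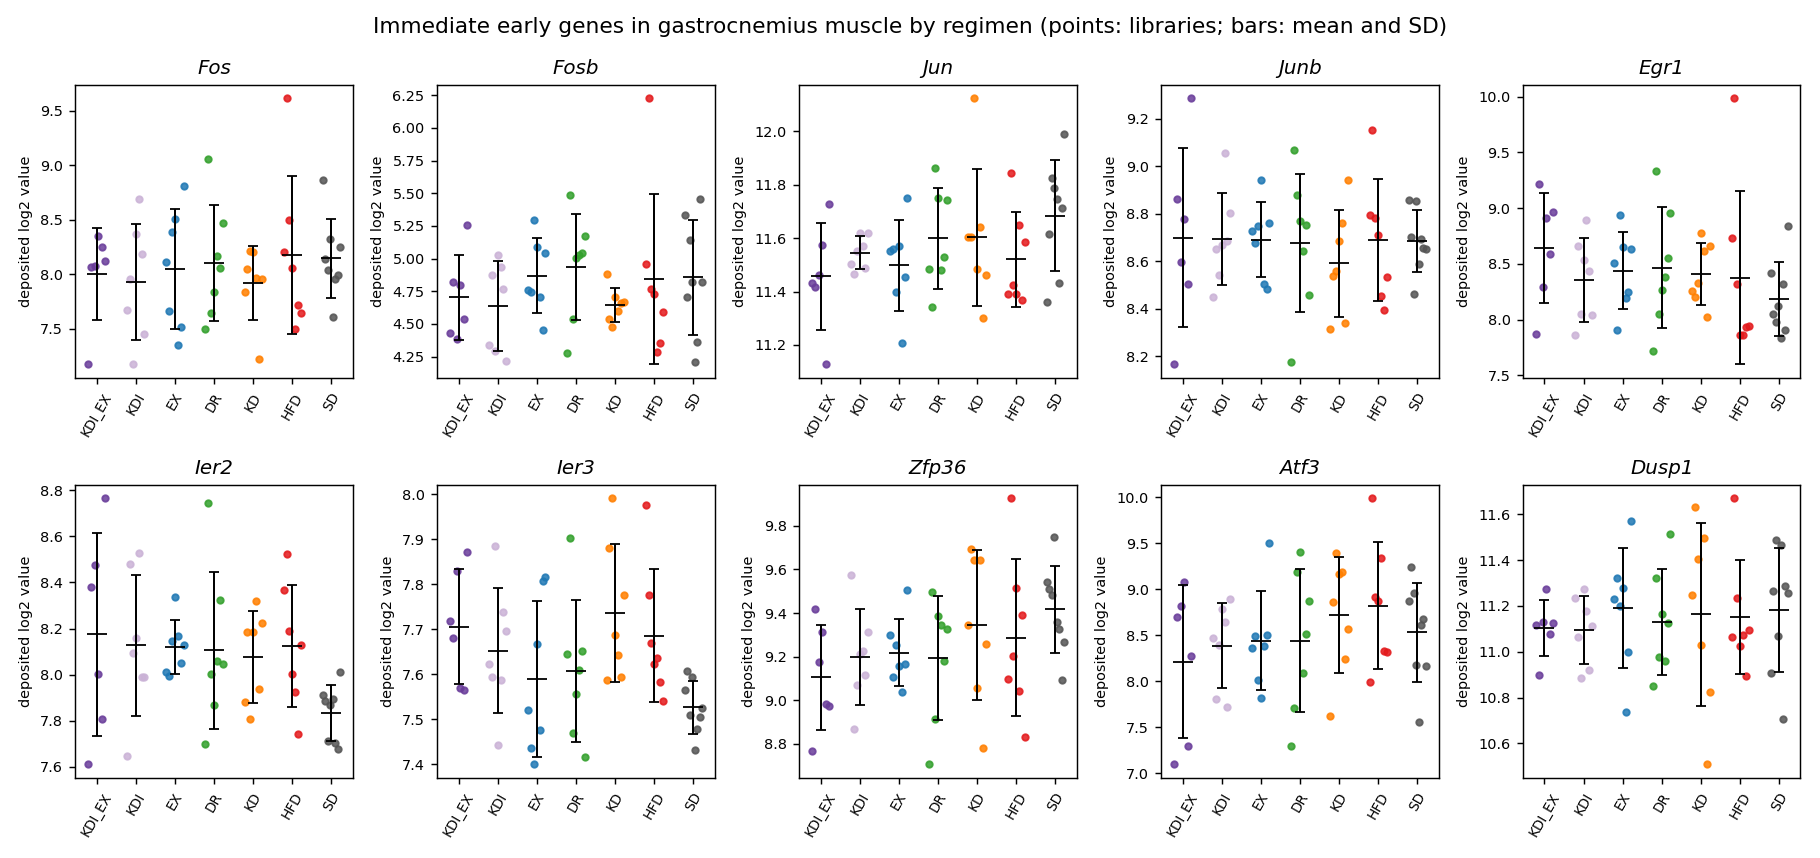
Deposited log2 value of each member (vertical axes, each with its own range) in 49 gastrocnemius libraries by regimen (horizontal axes); points are libraries, horizontal bars the group mean and whiskers the standard deviation. One HFD library lies above the others of its group for Fos, Fosb, Egr1 and Dusp1, and Atf3 spreads from 7.10 to 9.99.

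The interventions in muscle gave no member past the test either. The share of all genes called was 0.0254% in DR vs HFD, 0.0318% in KDI vs HFD, 0% in EX vs HFD and 0.108% in KDI_EX vs HFD. Atf3 had the smallest p of the members in DR, KDI and KDI_EX. Its median was 8.49 (7.10 to 9.08) in KDI_EX muscles and 8.88 (8.0 to 9.99) in HFD muscles. The groups overlapped over most of their range (difference -0.61, SE 0.34, 95% interval -1.30 to 0.08, unadjusted p = 0.0813, adjusted p = 0.808), and the value was -0.39 without KDI_EX replicate 1. The differences of Atf3 were -0.44 in KDI vs HFD and -0.38 in DR vs HFD, and with library quality weights the DR value was 0.059. Without HFD replicate 2, the highest HFD muscle, the KDI value was -0.24 and the DR value -0.19. In EX vs HFD the smallest p was that of Ier3 (-0.10, SE 0.08, adjusted p = 0.996), and it was -0.05 without HFD replicate 1. Fos, which contraction is known to induce, had values of 8.11 (7.35 to 8.81) in EX muscles and of 8.05 (7.5 to 9.61) in HFD muscles, as median and range. The interval of that difference, -0.65 to 0.40 on the log2 scale, leaves room for changes of either sign, and the difference itself was -0.13 with HFD replicate 2 and 0.11 without it.

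KDI_EX vs KDI called 0% of genes and 0 members in muscle, with Egr1 nearest at 0.29 (SE 0.25, adjusted p = 0.977, and 0.17 without KDI_EX replicate 2), and the dependence of the wheel difference on the diet called 0% of genes and 0 members, with Ier3 nearest at 0.15 (SE 0.11). The F test over the 7 regimens called 0.718% of genes and 0 members in muscle. Over muscle libraries, 1.95% of the variance of Dusp1, 2.40% of that of Junb and 3.88% of that of Fos lay between the regimens' means. For Ier3 the share was 22.2%, the highest of the members. In nerve the shares ran from 8.98% for Fosb to 39% for Ier3. Such raw shares over 7 groups lie above 0 even where regimens do not differ, so they do not by themselves show an effect of regimen. Among the 53 other early response genes, 0 passed in any comparison in either tissue, and likewise 0 of 31 upstream factors.

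Most of the variation lay between libraries of the same regimen. The standard deviation within groups was 0.62 for Fosb and 0.56 for Fos in nerve, above 98.5% and 98% of all tested genes, where the median gene had 0.14. Egr1 followed with 0.36 (94.2%) and Junb with 0.29 (90.3%), then Atf3, Ier2, Dusp1 and Zfp36 with percentiles from 82.7 to 88.1. Jun at 0.15 and Ier3 at 0.13 lay near the median gene, at percentiles of 53.5 and 44.5. Between the lowest and the highest nerve library, Fos differed 3.98-fold, Fosb 4.22-fold and Ier3 1.58-fold, by the deposited log2 values.

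In muscle, Atf3 was the most variable member, with a within-group standard deviation of 0.64, above 99.1% of tested genes, where the median gene had 0.17. Fos had 0.51 (97.9%), Egr1 0.47 (97.4%) and Fosb 0.40 (95.1%). Atf3, which is induced by stress, differed 7.44-fold between the lowest and the highest muscle library and 2.23-fold in nerve. Ier2, Zfp36, Dusp1 and Junb lay at percentiles from 75.6 to 82, Jun at 57.2 and Ier3 at 30.1. Fos, Fosb and Egr1 lay at percentiles from 94.2 to 98.5 in both tissues, while Jun and Ier3 lay in the middle or below it in both.

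**Figure D3:**
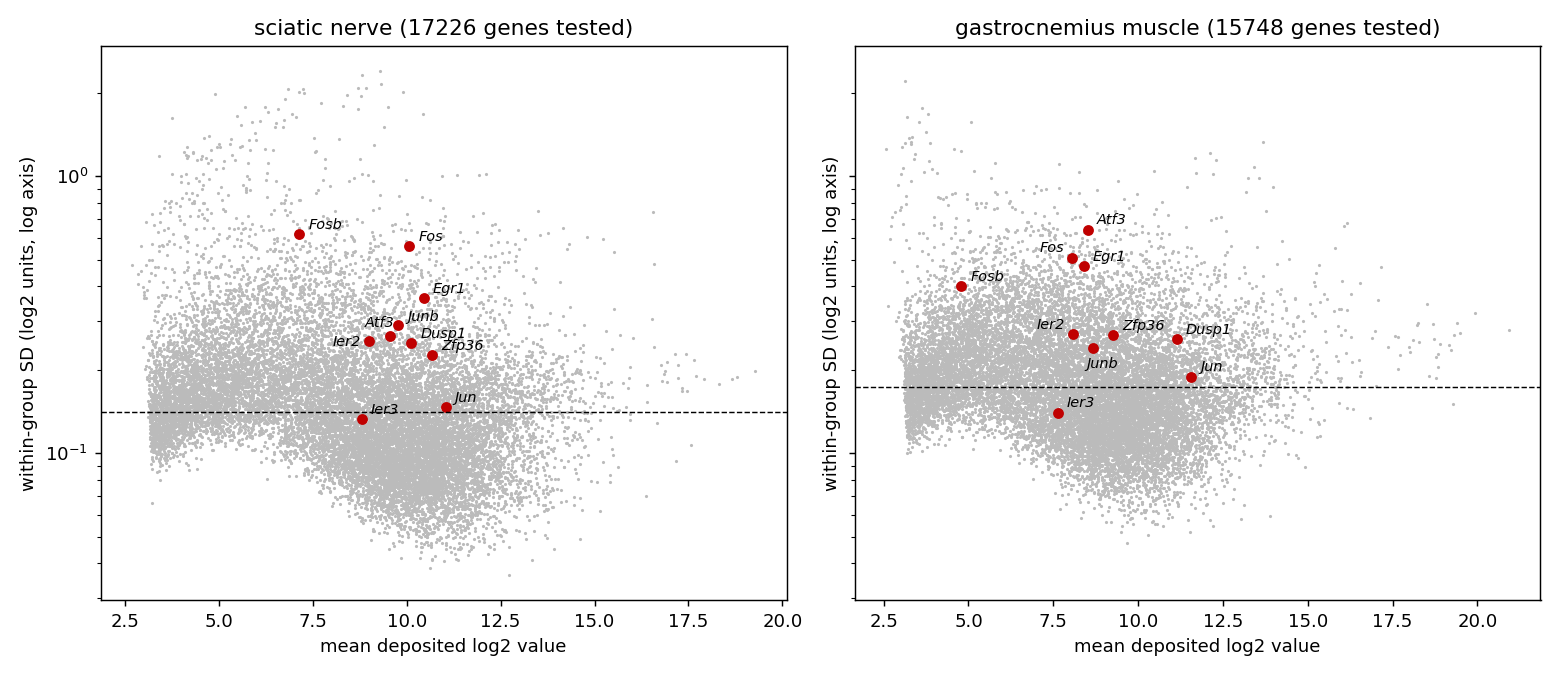
Within-group standard deviation (vertical log axis, log2 units) against mean deposited log2 value (horizontal axis) for all tested genes of each tissue (grey points) and the 10 members (red points, named); the dashed line is the median over all tested genes. Fosb at 0.62 and Fos at 0.56 stand highest among the members in nerve and Atf3 at 0.64 in muscle, while Ier3 at 0.13 and 0.14 lies below the dashed line in both.

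The members varied together. How often pairs of other genes did so was not computed, so the counts below do not set the members apart from other genes. With group means removed, 29 of 45 pairs were correlated over the 47 nerve libraries (28 positive, 1 negative) and 23 of 45 over the 49 muscle libraries (all 23 positive), at an adjusted p under 0.05 over the 90 pairs of both tissues by permutation. Fos and Egr1 had the highest r in both tissues. In nerve it was 0.93 (rho 0.93, adjusted p = 4.09e-05) and in muscle 0.83 (rho 0.78, adjusted p = 4.09e-05), which rest on the smallest p that the permutations can give, 1e-05. Without the 2 libraries farthest out, r was 0.92 in nerve and 0.75 in muscle. Within single regimens it was positive in 7 of 7 groups in each tissue, from 0.82 to 0.98 in nerve and from 0.54 to 0.98 in muscle.

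The tightest block was made of Fos, Fosb, Junb, Egr1 and Ier2, a group of 5 picked after the r values were seen and described without a test. Their 10 pairs had r from 0.70 to 0.93 (median 0.84) in nerve and from 0.53 to 0.83 (median 0.69) in muscle. In nerve, 17 of 47 libraries had all 5 of these genes above their group mean and 17 had none of the 5 above it. In muscle, 12 of 49 libraries had all 5 and 8 had none. In nerve most libraries were therefore high or low for the whole block at once, and the contrast with muscle was not tested.

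Pairs across the block's edge were looser. The 25 pairs with 1 member in the block had a median r of 0.39 in nerve and 0.22 in muscle. Jun, the AP-1 partner of Fos, was related to all 5 genes of the block in nerve, with r from 0.44 with Fosb to 0.61 with Egr1, and to none of the 5 in muscle, where its partners were Dusp1 (r = 0.60) and Atf3 (r = 0.46). The difference between tissues was not tested. Zfp36 and Dusp1, which both end signalling, had an r of 0.74 in nerve (rho 0.70) and 0.55 in muscle (rho 0.46). Ier3 had 1 partner in each tissue, Atf3 in nerve (r = 0.39) and Ier2 in muscle (r = 0.33, and 0.31 with an adjusted p of 0.0639 without the libraries that stood apart). Atf3 had a negative r with Zfp36 in nerve, -0.38, and a positive one in muscle, 0.48.

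**Figure D4:**
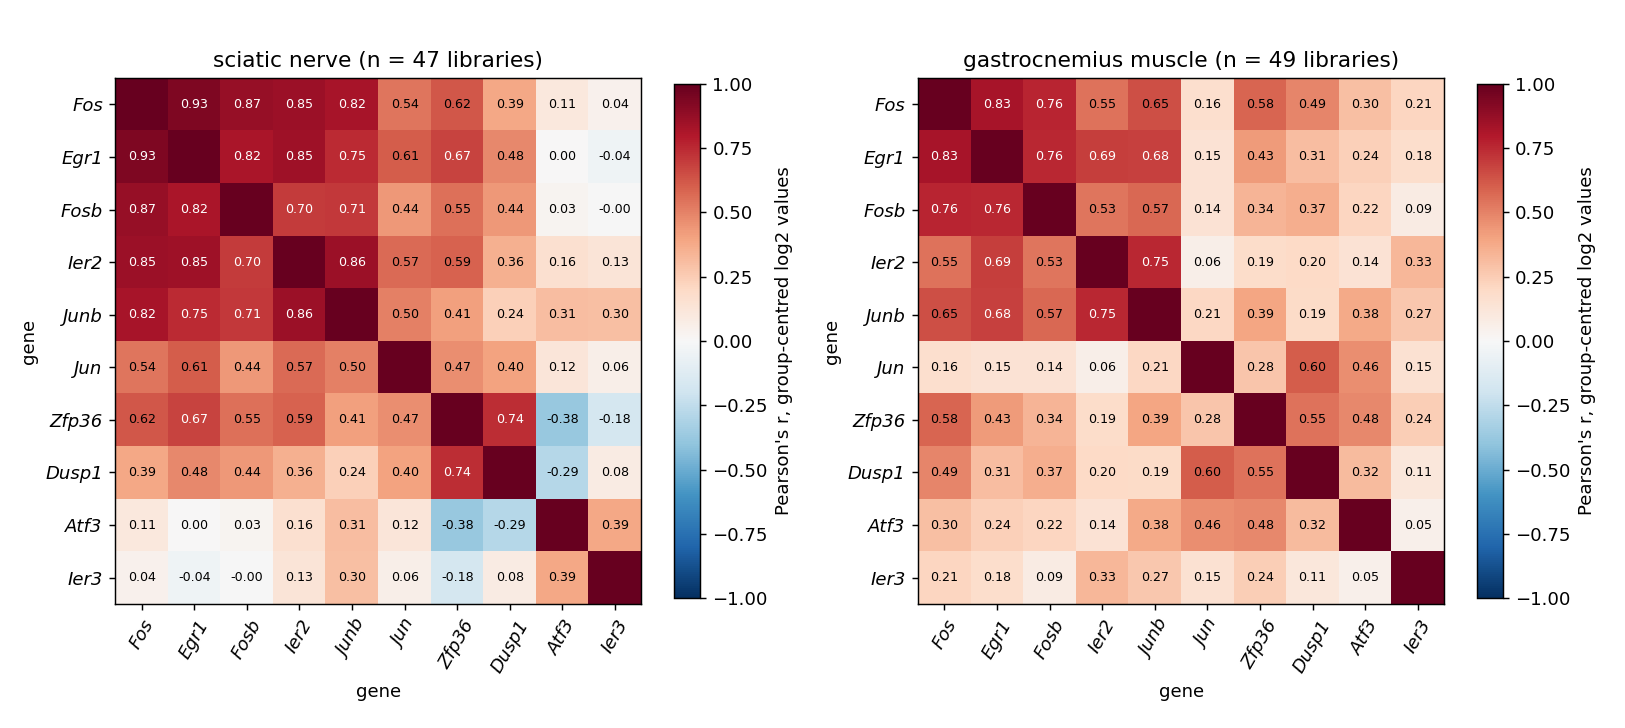
Pearson's r of group-centred log2 values for each pair of members in nerve (left, 47 libraries) and muscle (right, 49 libraries), printed in each cell and coloured from -1 (blue) to 1 (red). Fos, Egr1, Fosb, Ier2 and Junb form the darkest block in both tissues, with 0.93 and 0.83 for Fos and Egr1, and Ier3 is pale in nearly all cells.

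A single library carried part of these relations in muscle. HFD replicate 2 had the highest muscle value of all 49 libraries for Fos (9.61), Fosb (6.23), Egr1 (9.99), Zfp36 (9.93), Atf3 (9.99) and Dusp1 (11.67). In nerve, KD replicate 3 was the highest of its group for Fos (10.98), Fosb (7.78), Junb (10.18), Egr1 (10.95) and Ier2 (9.46). Without both libraries, an alternative chosen after the data were seen, 31 pairs were correlated in nerve and 16 in muscle. The 10 pairs of the block stayed past the threshold without them, with r from 0.67 to 0.93 in nerve and from 0.49 to 0.77 in muscle.

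Against the marker scores of cell types and stress programmes, 11 of 100 relations passed in nerve and 17 of 100 in muscle. The share of all tested genes that would pass against the same scores was not computed. These counts therefore do not set the members apart from other genes. The highest was Atf3 with the mean of 12 heat shock genes in muscle, with r of 0.87 and rho of 0.87 (adjusted p = 0.001 and 0.00133, resting on the smallest p that permutations can give). Without the 2 libraries farthest out r was 0.85, and it was positive within 7 of 7 regimens, from 0.56 in SD to 0.98. Without the libraries that stood apart r was 0.87. Among the single heat shock genes, looked at after this value was seen, Hspa1a (r = 0.89) and Hspa1b (r = 0.88), which encode the inducible HSP70 and are near-identical copies whose reads the counting may have shared out, stood beside the ER chaperone Hspa5 (0.74) and the co-chaperone Dnajb4 (0.73), while Hsph1 had 0.02 and Hspe1 -0.05. Hspa1a ran from 7.89 to 10.15 over muscle libraries and from 8.87 to 9.59 over nerve libraries.

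In nerve the sign was the other. Atf3 had r = -0.39 with the heat shock score (rho -0.41, adjusted p = 0.0503 for r and 0.0434 for rho), so the 2 measures fall on either side of the threshold, and r was positive in 2 of 7 regimens. Dusp1 (0.58) and Zfp36 (0.51) were the members related to the heat shock score in nerve with the highest r, and Jun (0.40) was the other. The remaining 8 nerve relations were with cell type markers and of like size. Dusp1 had r of 0.51 with endothelial, 0.49 with adipocyte, 0.42 with fibroblast and -0.49 with Schwann cell and myelin markers. Zfp36 had 0.41 with endothelial and 0.40 with adipocyte markers, while Atf3 had -0.51 with endothelial and 0.42 with Schwann cell and myelin markers. By rho, the endothelial values of Dusp1, Zfp36 and Atf3 missed the threshold. So did that of Dusp1 with fibroblast markers (adjusted p = 0.0604) and that of Atf3 with Schwann cell markers (adjusted p = 0.298). Both adipocyte values and that of Dusp1 with Schwann cell markers passed by rho as well. The part of these cell types in the heat shock relations was not tested. In muscle Jun (0.53), Zfp36 (0.45) and Dusp1 (0.41) were related to it as well as Atf3, which also had r = 0.38 with endothelial markers. Without the libraries that stood apart, Jun in nerve missed the threshold for the heat shock score (0.43, adjusted p = 0.0517, permutation). In muscle Zfp36 (0.42, adjusted p = 0.0517) and Dusp1 (0.39, adjusted p = 0.0649) missed it by the same test. The endothelial value of Atf3 in muscle (0.41, adjusted p = 0.0604, permutation) missed the threshold too. So did, in nerve, both marker relations of Zfp36 (0.40 each), that of Dusp1 with fibroblasts (0.37) and that of Atf3 with Schwann cells (0.39). Zfp36 also had r = 0.56 with 12 glucocorticoid-induced genes in muscle (adjusted p = 0.0012). Fos, Fosb and Egr1, the most variable of the block, had no relation to the heat shock score past the threshold in either tissue. Egr1 in nerve came nearest, with r = 0.37 (adjusted p = 0.0688, permutation), close to the 0.40 of Jun.

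**Figure D5:**
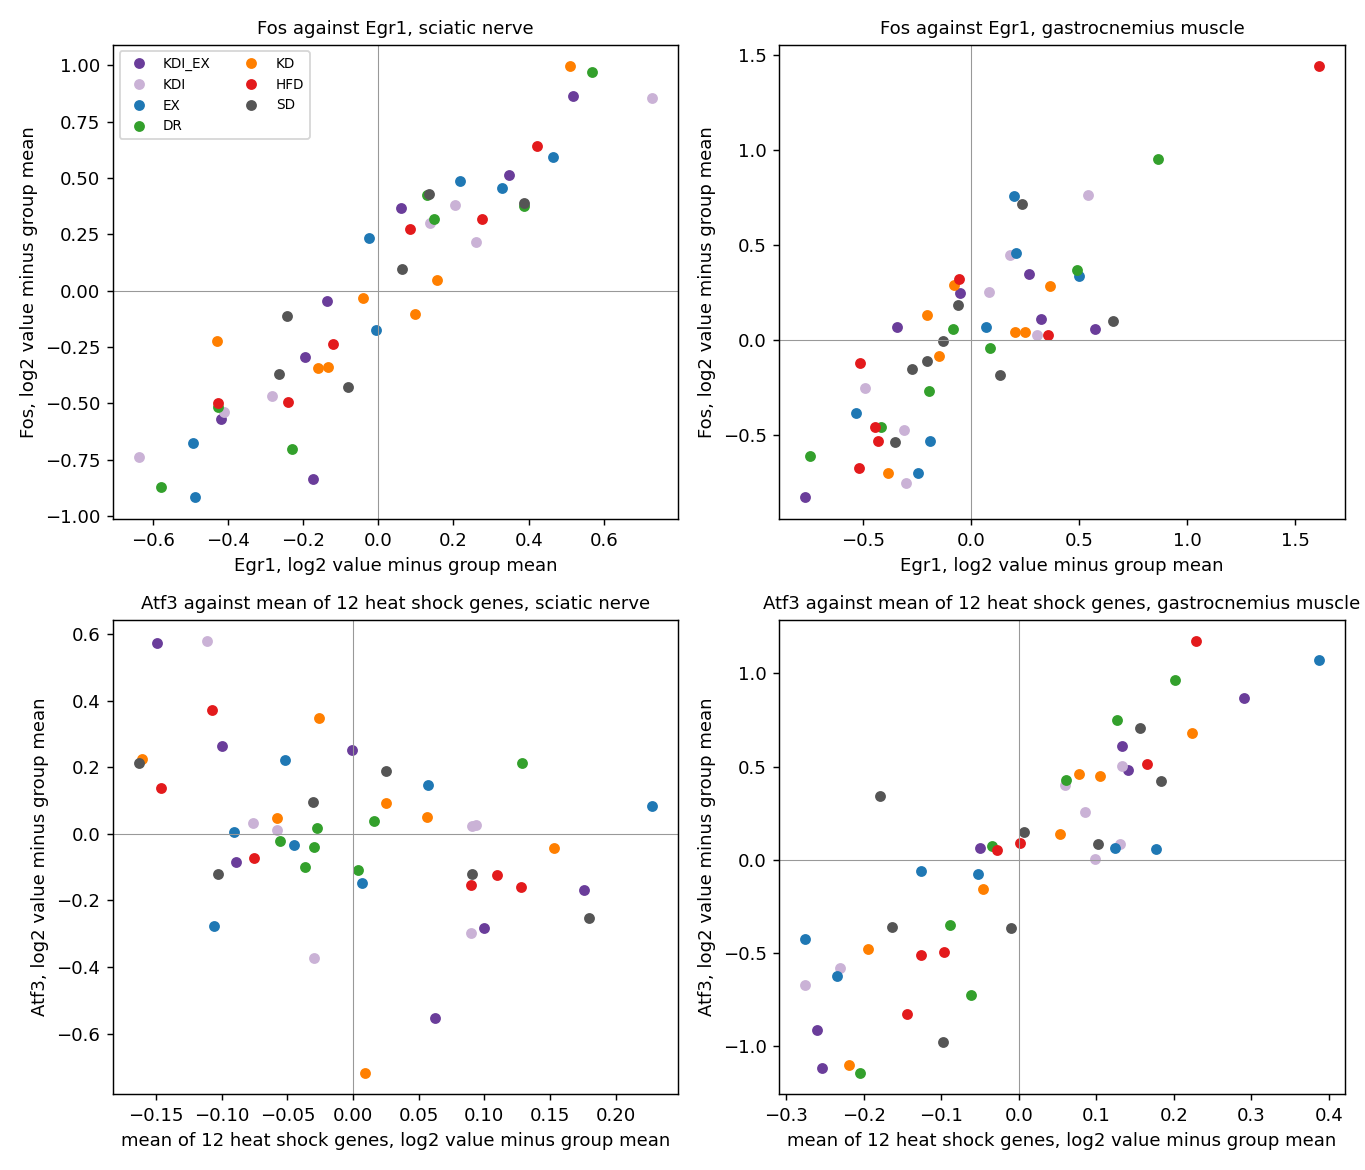
Group-centred log2 values of Fos against Egr1 (top) and of Atf3 against the mean of 12 heat shock genes (bottom) in nerve (left) and muscle (right); each point is a library, coloured by regimen. The top panels rise with r of 0.93 and 0.83, the bottom right with 0.87, and the bottom left falls loosely with -0.39.

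Outside the members, the genes whose values over libraries were most like the members' mean score are given as a description, with Pearson's r over group-centred values. In nerve they were Cxcl1, a chemokine for neutrophils (0.74), Socs3, an inhibitor of cytokine signalling (0.59), and Btg2, an antiproliferative early gene (0.57), followed by Pakap, Cacna2d4, Ska3, Gm11627 and Elavl3 at 0.47 to 0.48. In muscle they were Otud1, a deubiquitinase (0.64), Maff, a small Maf factor (0.60), Pgam1, an enzyme of glycolysis (0.59), and Jund, an AP-1 subunit (0.58), followed by Nfe2l2, Manf, Cables1 and Atp6ap2 at 0.55 to 0.57. No gene is on both lists.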

How the data were processed

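TRIzol RNA went into NEBNext Ultra libraries, per the labels, which were not stated to keep the strand and were read in pairs on a NovaSeq X Plus, and the submitters' processing notes name cutadapt 2.3, STAR 2.7.8a, RSEM 1.3.3, DESeq2 and GRCm38, without roles. The authors deposited 1 log2 value per gene and library. The transform, the counts and the depth are not given in the sources used here, so counting error is unknown and folds of low genes may be shrunken. The log2 values were used as deposited, each tissue by itself. A gene was tested where 6 or more libraries reached the log2 of 10, with limma 3.58.1 in R 4.3.3, the 7 groups in 1 fit with a trended, robust prior variance, two-sided, with Benjamini-Hochberg adjustment over the tested genes and calls at an adjusted p under 0.05. All p-values in the text that are not named as permutation tests are from this limma fit. Correlations used group-centred values and 100000 permutations of pairings (scipy 1.17.1), adjusted over both tissues. Pairings were shuffled over all libraries of a tissue, with no allowance for the 7 group means removed. These p-values are therefore somewhat too small, and calls near the threshold are uncertain. Recovery was tested on simulated data. Members, gene lists and tests were chosen with earlier results of these data known. Fully described are, per comparison, members called and the member with the smallest p. Alternatives were filtering, normalisation, library weights, marker covariates, prior, groups fitted and libraries left out.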

Additional observations from a re-analysis of the deposited data

Results flagged for a closer look

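In 12 of 140 groups of libraries (each member in each group of each tissue), the highest or lowest library lay far from the others of its group, with a gap to its nearest neighbour above the 95% critical value of Dixon's test for the group's size. Chance alone flags about 1 in 20 groups, and members that vary together are flagged together.

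In nerve, KD replicate 3 was the high library for Fos at 10.98 (the next KD nerve was at 10.03), Fosb at 7.78 (next 6.87) and Ier2 at 9.46 (next 9.04). Atf3 was low in KD replicate 1 at 9.02 (next 9.69) and high in KDI replicate 5 at 10.17 (next 9.63), and Jun was high in SD replicate 5 at 11.44 (next 11.12). In muscle, HFD replicate 2 was the high library for Fosb at 6.23 (next 4.96) and Egr1 at 9.99 (next 8.73). Fos was low in KDI_EX replicate 1 at 7.17 (next 8.06) and in KD replicate 6 at 7.22 (next 7.83). Jun was high in KD replicate 3 at 12.12 (next 11.64) and Atf3 in EX replicate 7 at 9.51 (next 8.50). All values are deposited log2 values of single libraries.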

How the results depend on the processing

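No paired analysis was possible because no label gives a number or a mouse that libraries of different groups share. Among members, the count called in nerve HFD vs SD was 0 as reported, 1 with library quality weights and from 0 to 1 when each library was left out in turn, the 1 being Ier2 without HFD replicate 5. In those fits 22% (quality weights) and 9.57% (without HFD replicate 5) of all genes were called. The F test in nerve called 1, Ier3, with quality weights, where 1812 of 17226 genes were called. In the other comparisons and alternatives the count of members called stayed at 0. The count over all genes moved far more. In nerve HFD vs SD it was 0 as reported, 3787 with quality weights, 376 with marker scores as covariates and from 0 to 1648 with single libraries left out. In nerve DR vs HFD it was 0 as reported and 159 with marker scores, in nerve EX vs HFD 0 and 857 with quality weights, in nerve KDI_EX vs HFD 12 and 155 with marker scores, in nerve KDI vs HFD 4 and 47 with marker scores, and in nerve KD vs SD 1 and 4. In muscle HFD vs SD it was 3 as reported and 257 with quality weights, in KD vs SD 31 and 223, in DR vs HFD 4 and 54, in KDI vs HFD 5 and 18, and in KDI_EX vs HFD 17 and from 2 to 36 over the alternatives. Of the members' named differences, Atf3 in muscle DR vs HFD changed sign, at 0.059 with quality weights and -0.38 as reported. Correlated pairs numbered from 28 to 31 in nerve (29 as reported) and from 16 to 23 in muscle (23 as reported). Relations to marker scores were 11 in nerve and 17 in muscle as reported, 4 and 11 without centring on groups, and 6 and 6 without the 4 libraries that stood apart. The cause of these changes was not tested. The depth is unknown, and the spread of the log2 values between libraries sets what could be called.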
